A study of Homo sapiens with 12 samples.

Results

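The data cover 10 genes of mitochondrial fusion and cristae shape, among 54628 gene symbols in the count table, in OCI-AML3, a human cell line from acute myeloid leukaemia. They were taken by symbol: MFN1, MFN2, OPA1, OMA1, YME1L1, PHB2, STOML2, PLD6, IMMT and CHCHD3. All 10 were in the table, and all 10 passed the filter on low counts, among 15173 genes that did. The 12 libraries form 4 groups of 3, each treated for 24 h: Comb, which received ABT199 (venetoclax) together with ERKi; ERKi alone, labelled compound 27; ABT199 alone; and DMSO, the solvent control. Venetoclax blocks the survival protein BCL2, and ERKi blocks the kinases at the end of the RAS to ERK cascade. The labels give neither doses nor a statement that replicates were separate cultures, so p-values measure the spread between these libraries, which may be technical, and all groups are of a single cell line.

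Mitochondria fuse in a pair of steps. Mitofusins MFN1 and MFN2, GTPases of the outer membrane, tether and join the outer membranes, helped by lipids such as those made by PLD6. OPA1, a GTPase of the inner membrane, joins the inner membranes and keeps the cristae junctions narrow. The inner membrane proteases YME1L1 and OMA1 cut OPA1 from long to short forms, OMA1 mainly under stress, and the balance of forms sets how far the network fuses. Prohibitins such as PHB2 and the related STOML2 form scaffolds in the inner membrane that hold these proteases and OPA1. IMMT (mitofilin) and CHCHD3 are core subunits of MICOS, the complex that builds cristae junctions. Tight cristae hold cytochrome c, whose release starts the caspase cascade. RNA counts measure neither the cleavage of OPA1 nor the shape of mitochondria.

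Library totals ran from 19199296 to 21275065 counts. Markers of the labelled line were present in all groups: the 8 myeloid markers summed to 2573 to 2637 CPM (read counts scaled to a common library size with TMM factors) in Comb, 2675 to 2714 in ERKi, 1362 to 1399 in ABT199 and 1399 to 1448 in DMSO libraries. Of other blood and vessel cells, the T cell genes CD3D and CD3G, the B cell gene MS4A1, the red cell gene HBB and the endothelial gene CDH5 were at 0 in every library. Among replicates, DMSO replicate 1 was the most unlike its partners: chi-square divided by its degrees of freedom came to 16.3 and 15.4 in its pairs, and to 2.26 to 5.11 in all other pairs within a group. Some results that involve DMSO are therefore also given without it, and values given only with it may also depend on it. In bulk RNA, fewer cells of a type and less RNA per cell cannot be told apart.

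Promoter sequence was looked at for the members with RefSeq promoters of GRCh38.p14, which were 8 of 10. Shown here are the 250 bases before the start of the mitofusins, which moved in opposite directions with ERKi, and of OPA1, STOML2 and PHB2, which fell with it. Capitals mark matches on either strand to the motifs searched: the ETS core CCGGAAGT, the NRF1 core GCATGCGC, the E-box CACGTG, the nuclear receptor element AAGGTCA and the CCAAT box. The 2 overlapping copies of the NRF1 core in the OPA1 window form a single run of capitals.
MFN1, chr3:179347459-179347708, plus strand: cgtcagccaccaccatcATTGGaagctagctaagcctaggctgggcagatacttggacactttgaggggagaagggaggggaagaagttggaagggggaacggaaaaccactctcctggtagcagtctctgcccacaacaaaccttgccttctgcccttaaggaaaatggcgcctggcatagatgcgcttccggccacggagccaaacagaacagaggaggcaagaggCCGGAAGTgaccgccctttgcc
MFN2, chr1:11980194-11980443, plus strand: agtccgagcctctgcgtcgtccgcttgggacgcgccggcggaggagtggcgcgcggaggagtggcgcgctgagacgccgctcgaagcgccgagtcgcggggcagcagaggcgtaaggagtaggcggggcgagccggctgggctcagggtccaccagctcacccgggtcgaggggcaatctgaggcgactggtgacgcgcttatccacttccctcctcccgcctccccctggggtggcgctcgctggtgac
OPA1, chr3:193592958-193593207, plus strand: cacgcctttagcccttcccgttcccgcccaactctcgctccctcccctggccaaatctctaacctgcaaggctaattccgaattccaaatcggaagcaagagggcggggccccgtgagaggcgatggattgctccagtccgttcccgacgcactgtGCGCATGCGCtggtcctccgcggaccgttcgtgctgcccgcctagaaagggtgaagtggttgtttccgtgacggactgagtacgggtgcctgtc
STOML2, chr9:35103196-35103445, minus strand: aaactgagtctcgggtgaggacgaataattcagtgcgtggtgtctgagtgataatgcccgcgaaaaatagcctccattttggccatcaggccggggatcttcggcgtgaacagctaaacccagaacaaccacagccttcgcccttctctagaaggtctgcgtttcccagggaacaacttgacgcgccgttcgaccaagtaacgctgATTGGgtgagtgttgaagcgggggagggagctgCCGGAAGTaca
PHB2, chr12:6970754-6971003, minus strand: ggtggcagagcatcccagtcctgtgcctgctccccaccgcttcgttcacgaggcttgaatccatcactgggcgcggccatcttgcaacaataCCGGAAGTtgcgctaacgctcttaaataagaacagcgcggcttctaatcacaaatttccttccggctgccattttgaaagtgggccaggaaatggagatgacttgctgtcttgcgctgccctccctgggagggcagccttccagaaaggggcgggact

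The ETS core was present in 3 of the 8 members (MFN1, STOML2 and PHB2), in 8.03% of the 11022 tested genes with a promoter, and in 3.42% of all 35116 promoters of the table. It lay 22 bases before the start of MFN1, which was higher with ERKi, and 11 bases before that of STOML2, which was lower. The NRF1 core was present in OPA1 alone among the 8, and in 5.55% of the tested genes. The CCAAT box was present in 4 of the 8 (MFN1, STOML2, IMMT and CHCHD3) and in 40.9% of the tested genes. No E-box and no nuclear receptor element was found in these windows, against 11.2% and 3.28% of the tested genes. PHB2 and STOML2 each have 2 annotated starts, and the outer one is shown. These matches are letters in a window and say nothing of a factor's binding.

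Levels in DMSO differed widely between members when scaled by exon length. PHB2 was at 105.9 ± 16.2 CPM per kilobase of exon (SD, n = 3, GENCODE 29 exons) and STOML2 at 70.7 ± 9.16. IMMT (59.1 ± 1.73), YME1L1 (43.6 ± 1.85), CHCHD3 (40.4 ± 2.69) and MFN2 (33.0 ± 1.48) followed on the same scale. PLD6 stood at 23.1 ± 0.387, OPA1 at 19.9 ± 1.84 and MFN1 at 6.47 ± 0.623 CPM per kilobase. OMA1 was the least abundant of the 10 at 2.25 ± 0.24, from 157 to 197 reads per DMSO library, so its values carry the largest counting error. The libraries of YME1L1 and CHCHD3 overlap on this scale, so the order of these neighbours does not exceed their spread.

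ERKi alone lowered 8 of the 10 genes and raised the other 2. Across all 15173 genes tested, 35.2% were called lower and 34.5% higher in this comparison (edgeR quasi-likelihood test, Benjamini-Hochberg adjusted p under 0.05). The median log2 fold change of the 10 was -0.65, against 0.013 over all genes. None of the 10 genes had overlapping groups, and the share of all genes without overlap was not computed. STOML2, PLD6, CHCHD3 and PHB2 fell most, and OMA1 and MFN1 were the genes that rose.

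**Figure D1:**
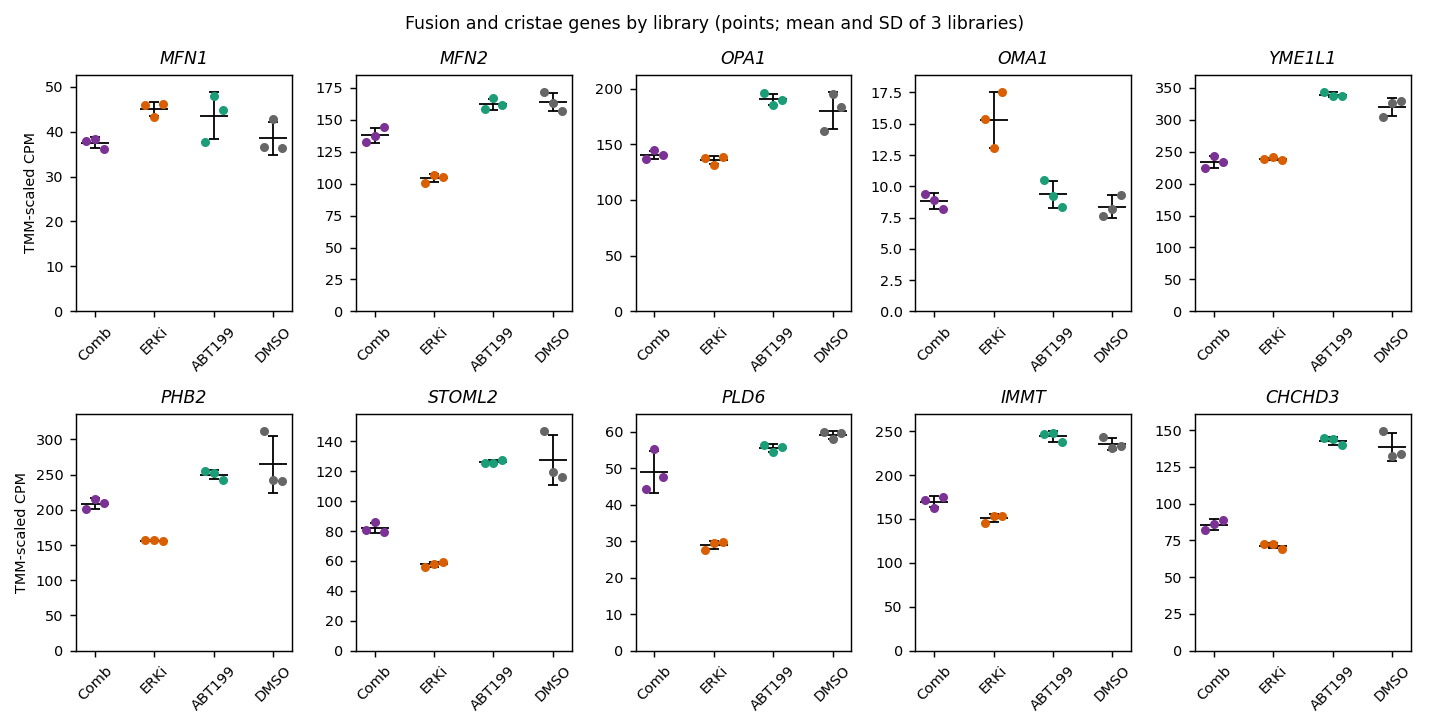
TMM-scaled CPM of each member (y axes, from 0) in each library (points) of the 4 groups on the x axes, with the mean and SD of 3 libraries in black. ERKi libraries lie below DMSO libraries for 8 genes and above them for MFN1 and OMA1, and Comb libraries lie between ERKi and DMSO for MFN2, PHB2, STOML2, PLD6, IMMT and CHCHD3.

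The outer membrane genes came first in the fusion sequence and moved in unlike ways. MFN2, on chromosome 1 (11980444 to 12013508, GRCh38), had 101, 107 and 105 CPM in ERKi libraries, against 172, 163 and 157 CPM in DMSO libraries. Every ERKi library was below every DMSO library, and the log2 fold change was -0.65 (SE 0.049, edgeR adjusted p = 3.55e-09), a 1.57-fold lower level. With Comb, MFN2 had 132, 138 and 144 CPM, above all ERKi libraries and below all DMSO libraries. The log2 fold change of Comb was -0.25 against DMSO (SE 0.049, adjusted p = 0.000293), and 0.40 against ERKi (SE 0.049, adjusted p = 5.14e-06). ABT199 libraries held 159, 167 and 161 CPM, overlapping DMSO (log2 fold change -0.016, adjusted p = 0.944).

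MFN1, the other mitofusin, on chromosome 3 (179347709 to 179394936), had 45.8, 43.2 and 46.2 CPM in ERKi libraries, against 36.5, 42.8 and 36.3 CPM in DMSO libraries. The groups did not overlap, but the highest DMSO library lay just under the lowest ERKi library. The log2 fold change was 0.23 (SE 0.081, adjusted p = 0.0209). The call was lost without DMSO replicate 1 (adjusted p = 0.0531), DMSO replicate 3 (0.0976), ERKi replicate 1 (0.0711) or ERKi replicate 3 (0.0653). With upper-quartile scaling in place of TMM the value was 0.36. In Comb, MFN1 had 38.0, 38.4 and 36.1 CPM, all below the ERKi libraries (log2 fold change -0.27, SE 0.082, adjusted p = 0.0127), and it did not differ past the threshold from DMSO (-0.040, 95% interval -0.23 to 0.15, adjusted p = 0.692).

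PLD6, a mitochondrial phospholipase that turns cardiolipin into phosphatidic acid at the outer membrane, lies on chromosome 17 (17200995 to 17206333). ERKi libraries held 27.7, 29.5 and 29.8 CPM, against 59.9, 58.0 and 59.6 CPM in DMSO libraries. This was a 2.04-fold lower level (log2 fold change -1.03, SE 0.069, adjusted p = 7.31e-10). Comb libraries held 44.3, 55.4 and 47.6 CPM, with replicate 2 highest, which is 1.69-fold above ERKi (log2 fold change 0.76, SE 0.070, adjusted p = 2.31e-07). Against DMSO, Comb remained lower (-0.27, SE 0.066, adjusted p = 0.00200). Of the exons of PLD6, 6.88% overlap the opposite-strand gene MPRIP, which itself was at -0.47 with ERKi against DMSO and at -0.0066 in Comb against ERKi on the log2 scale. A further 17.58% lie in the same-strand GENCODE gene AC055811.2, which was not analysed here.

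OPA1, on chromosome 3 (193593208 to 193697811), had 137, 131 and 139 CPM in ERKi libraries, against 162, 195 and 183 CPM in DMSO libraries. The groups did not overlap, and DMSO replicate 1 was the lowest of the DMSO libraries. The log2 fold change was -0.41 (SE 0.058, adjusted p = 8.17e-06), -0.49 without DMSO replicate 1, and -0.27 with upper-quartile scaling. Comb libraries held 137, 144 and 140 CPM, overlapping the ERKi libraries. The difference of Comb from ERKi was 0.050 on the log2 scale (95% interval -0.084 to 0.18, adjusted p = 0.497), and that of Comb from DMSO was -0.36 (SE 0.058, adjusted p = 4.36e-05).

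The proteases that cut OPA1 moved apart. OMA1, a zinc protease activated by stress, on chromosome 1 (58480719 to 58546726), had 15.3, 13.1 and 17.5 CPM in ERKi libraries (324, 283 and 376 reads), against 7.59, 8.19 and 9.34 CPM in DMSO libraries (157, 174 and 197 reads). This was 1.83-fold higher with no overlap (log2 fold change 0.87, SE 0.126, adjusted p = 1.06e-05). In Comb it had 9.41, 8.94 and 8.17 CPM, overlapping DMSO (0.078, 95% interval -0.22 to 0.38, adjusted p = 0.618), and 1.73-fold below ERKi (log2 fold change -0.79, SE 0.126, adjusted p = 7.36e-05). GENCODE places 6.91% of the exonic bases of OMA1 inside DAB1, on the same strand, and DAB1 had 0 reads in all libraries.

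YME1L1, the ATP-driven protease that cuts OPA1 in resting cells, on chromosome 10 (27110111 to 27154384), moved the other way. It had 238, 241 and 237 CPM in ERKi libraries, against 304, 327 and 328 CPM in DMSO libraries (log2 fold change -0.42, SE 0.043, adjusted p = 1.42e-07). Comb libraries held 224, 242 and 234 CPM, which overlapped ERKi (-0.030, 95% interval -0.13 to 0.069, adjusted p = 0.591) and lay below DMSO (-0.45, SE 0.043, adjusted p = 9.02e-08). The start of YME1L1 overlaps MASTL, a mitotic kinase gene on the opposite strand, over 6.04% of its exonic bases. MASTL had a mean of 28.96 CPM in ERKi libraries, against 83.4 CPM in DMSO libraries, and without the strand setting of the counting, reads of that stretch cannot be told apart.

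**Figure D2:**
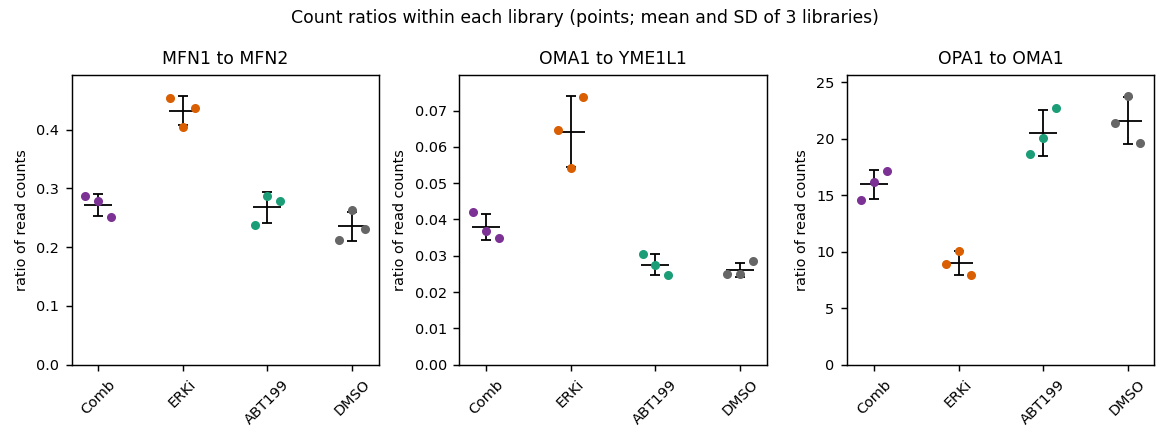
Ratio of read counts of 2 genes in the same library (y axes, from 0) for MFN1 to MFN2, OMA1 to YME1L1 and OPA1 to OMA1, in the 4 groups on the x axes, with points for libraries and the mean and SD of 3 in black. For all 3 ratios the ERKi libraries stand apart from the Comb, ABT199 and DMSO libraries.

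Ratios of read counts within a library do not depend on library scaling. They reuse the counts behind the fold changes above, so they restate the same divergence and are not separate evidence. The MFN1 to MFN2 ratio was 0.454, 0.405 and 0.438 in ERKi libraries, against 0.212, 0.263 and 0.231 in DMSO libraries, a 1.84-fold higher ratio. In Comb it was 0.287, 0.279 and 0.251, which is 0.629 times that of ERKi and overlapped DMSO. The OMA1 to YME1L1 ratio averaged 0.0642 ± 0.00978 with ERKi and 0.0262 ± 0.00199 with DMSO (SD, n = 3 each), 2.44-fold higher. In Comb it averaged 0.0379 ± 0.00364, above every DMSO library and below every ERKi library. OPA1 to OMA1 averaged 8.97 ± 1.07 with ERKi and 21.6 ± 2.09 with DMSO, and in Comb it averaged 15.96 ± 1.31. Each non-overlapping pair reached p = 0.1 in the two-sided exact permutation test, the smallest that 3 against 3 libraries allow, or 0.15 adjusted over the 15 comparisons. The ratios of different gene pairs are not comparable with each other, since gene lengths differ.

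The scaffold genes were among the strongest falls of the list. STOML2, on chromosome 9 (35099776 to 35103195), had 55.7, 58.2 and 59.3 CPM in ERKi libraries, against 147, 120 and 116 CPM in DMSO libraries. DMSO replicate 1 was well above its partners, yet all DMSO libraries were far above the ERKi libraries. The level was 2.21-fold lower (log2 fold change -1.14, SE 0.072, adjusted p = 3.68e-10), and -1.04 without DMSO replicate 1. Comb libraries held 80.6, 86.0 and 79.3 CPM, between ERKi and DMSO, at 0.50 from ERKi (SE 0.073, adjusted p = 2.94e-05) and -0.64 from DMSO (SE 0.071, adjusted p = 6.77e-07) on the log2 scale.

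PHB2, on chromosome 12 (6965327 to 6970753), showed the same order. It had 157, 157 and 155 CPM in ERKi libraries, against 311, 242 and 240 CPM in DMSO libraries, where replicate 1 was again highest (log2 fold change -0.76, SE 0.075, adjusted p = 1.09e-07, and -0.63 without DMSO replicate 1). Comb libraries held 201, 216 and 210 CPM, above all ERKi libraries (0.42, SE 0.075, adjusted p = 0.000225) and below all DMSO libraries (-0.34, SE 0.074, adjusted p = 0.000722). Without DMSO replicate 1 the value against DMSO was -0.21 (adjusted p = 2.25e-05). PHB1, which forms rings with PHB2, had a log2 fold change of -1.31 with ERKi against DMSO (SE 0.084, adjusted p = 4.75e-10) and of 0.54 in Comb against ERKi.

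The MICOS genes fell with either ERKi treatment. CHCHD3, on chromosome 7 (132784870 to 133082090), had 72.4, 72.9 and 69.4 CPM in ERKi libraries, against 149, 133 and 134 CPM in DMSO libraries, a 1.94-fold lower level (log2 fold change -0.95, SE 0.054, adjusted p = 9.02e-11). Comb libraries held 81.9, 86.4 and 89.2 CPM, all above ERKi (0.26, SE 0.055, adjusted p = 0.000834) and well below DMSO (-0.69, SE 0.054, adjusted p = 8.5e-09). IMMT, the scaffold subunit of MICOS, on chromosome 2 (86143936 to 86195462), had 146, 154 and 154 CPM in ERKi libraries, against 243, 231 and 233 CPM in DMSO libraries (log2 fold change -0.64, SE 0.045, adjusted p = 1.33e-09). In Comb it had 171, 162 and 175 CPM, a small step above ERKi (0.17, SE 0.045, adjusted p = 0.00541) and -0.47 from DMSO (SE 0.045, adjusted p = 9.29e-08).

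**Figure D3:**
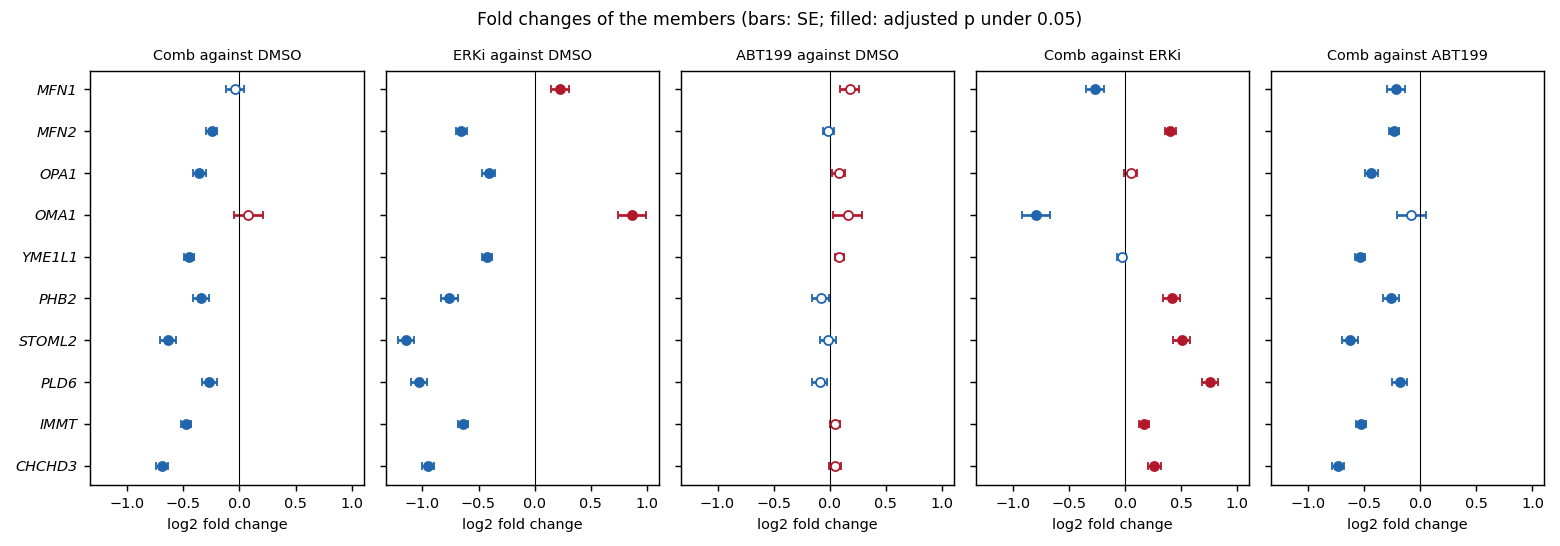
Log2 fold change (x axes) of each member (rows) in 5 comparisons (panels), with bars for the SE and filled points for adjusted p under 0.05, red above 0 and blue below 0. With ERKi against DMSO all 10 points are filled, and with ABT199 against DMSO none is.

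Venetoclax alone gave no call. Of the 10 genes, 0 were called by edgeR, DESeq2 or limma-voom, 1 (MFN1, 0.18) had an unadjusted p under 0.05, and log2 fold changes ran from -0.090 (PLD6) to 0.18. Across all genes 0.0198% were called higher and 0.382% lower. YME1L1 lay above DMSO in every library (343, 337 and 337 CPM in ABT199 libraries, against 304, 327 and 328 CPM in DMSO libraries) and PLD6 below (56.4, 54.5 and 55.8 CPM, against 59.9, 58.0 and 59.6 CPM), with adjusted p of 0.572 and 0.707 by edgeR. The signs of MFN2, PHB2 and STOML2, at -0.016, -0.083 and -0.016, turned without DMSO replicate 1 and were then 0.019, 0.050 and 0.096.

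Against DMSO, Comb lowered 8 of the 10 genes and raised none, while 33.4% of all genes were called lower and 30.4% higher. The median of the 10 was -0.35, against -0.0080 over all genes, and the 2 genes without a call were MFN1 and OMA1. Comb and ERKi were set against the same DMSO libraries here, so these falls and those of ERKi are not independent. Without DMSO replicate 1, STOML2 and OPA1 in Comb against DMSO were at -0.53 and -0.43, and with it at -0.64 and -0.36. Against ABT199, which asks what ERKi does where venetoclax is already present, 9 of the 10 were lower and none higher, with 34.2% and 32.1% of all genes called lower and higher. CHCHD3 (-0.74, SE 0.054), STOML2 (-0.62, SE 0.071), YME1L1 (-0.54, SE 0.043), IMMT (-0.52, SE 0.045) and OPA1 (-0.44, SE 0.058) were lowest on the log2 scale. OMA1 did not pass (-0.080, adjusted p = 0.605). PHB2 (-0.26), MFN1 (-0.22) and PLD6 (-0.18) lost their call with upper-quartile scaling, at -0.14, -0.097 and -0.062 (adjusted p = 0.0987, 0.322 and 0.421), which leaves 6 of the 10 called lower, and MFN2 was at -0.11 there and at -0.23 with TMM. MFN1 and PLD6 overlapped between Comb and ABT199. MFN1 also lost the call without ABT199 replicate 2 (adjusted p = 0.167) or 3 (0.0835) or Comb replicate 1 (0.057) or 3 (0.0947). PLD6 lost it without ABT199 replicate 1 (0.0687) or 3 (0.0544) or Comb replicate 1 (-0.11, 0.164) or 3 (0.0879), and was at -0.28 without Comb replicate 2.

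Set against ERKi, Comb had 6 of the 10 genes higher (MFN2, PHB2, STOML2, PLD6, IMMT and CHCHD3) and 2 lower (MFN1 and OMA1), with 26.5% and 24.3% of all genes called higher and lower. OPA1 and YME1L1 made up the rest. All 8 called genes had groups that did not overlap, and the share of all genes without overlap was not computed. PLD6 (0.76) and OMA1 (-0.79) were farthest from 0.

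The effect of ERKi on a DMSO background and its effect on a venetoclax background come from different libraries, and the interaction term tests whether they differ. It was called for 7 of the 10 genes, 5 above and 2 below the sum of the single effects, where 21.3% of all genes were above and 18% below. PLD6 had the largest positive term of the 10: the log2 fold change of ERKi was -0.18 with venetoclax and -1.03 without (interaction 0.85, SE 0.096, adjusted p = 6.38e-06). STOML2 was at -0.62 with and -1.14 without (0.52, SE 0.101, adjusted p = 0.00078), PHB2 at -0.26 and -0.76 (0.50, SE 0.105, adjusted p = 0.00142), and MFN2 at -0.23 and -0.65 (0.42, SE 0.069, adjusted p = 0.000206). Without DMSO replicate 1 the terms of STOML2 and PHB2 were smaller, at 0.41 and 0.37, and were still called. OMA1 was at -0.080 with and 0.87 without (-0.95, SE 0.181, adjusted p = 0.000665), and MFN1 at -0.22 and 0.23 (-0.44, SE 0.116, adjusted p = 0.00659).

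CHCHD3 had a small term (0.22, SE 0.076, adjusted p = 0.032), lost without ABT199 replicate 3 (0.0737), ERKi replicate 3 (0.084) or Comb replicate 2 (0.072) or 3 (0.106). Without DMSO replicate 1 the term of CHCHD3 was 0.16 and still called. For OPA1, YME1L1 and IMMT the term did not pass, with 95% intervals on the log2 scale of -0.22 to 0.16, -0.25 to 0.025 and -0.028 to 0.26. In that order, they were at -0.44, -0.54 and -0.52 on top of venetoclax and at -0.41, -0.42 and -0.64 with ERKi alone.

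**Figure D4:**
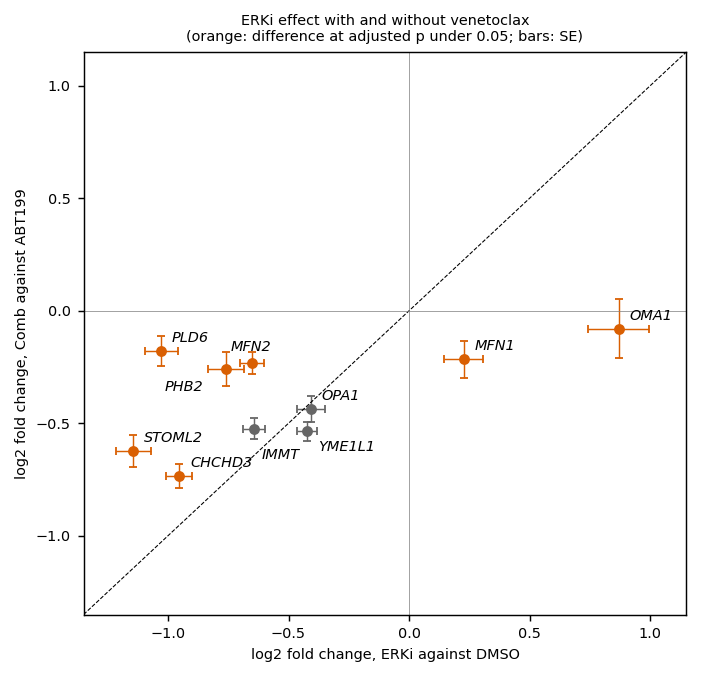
Log2 fold change of ERKi against DMSO (x axis) and of Comb against ABT199 (y axis) for the 10 genes, with SE bars and the line of equality dashed; orange marks an interaction at adjusted p under 0.05. PLD6, STOML2, PHB2, MFN2 and CHCHD3 lie above the line, OMA1 and MFN1 below it, and OPA1 lies close to it.

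Genes whose profile was most like that of a member were found by the root mean square difference of centred log2 CPM over the 12 libraries, among 10295 genes with a mean of at least 5 CPM. For MFN2 these were ECHS1 (0.037), BAG1 (0.037) and PARP1 (0.040), where the median gene was at 0.321. PARP1, for example, had 394 ± 5.10 CPM with ERKi and 616 ± 20.3 CPM with DMSO, and 542 ± 19.4 CPM with Comb (SD, n = 3 each). For OPA1 they were G3BP1 (0.036), UBE2K (0.037) and IARS2 (0.038), where the median gene was at 0.297. G3BP1 had 292 ± 7.95 CPM with ERKi and 404 ± 37.5 CPM with DMSO, and 306 ± 5.69 CPM with Comb. Nothing on shared function follows from such likeness.

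Related genes were taken as lists and described by counts, beside the shares of all genes. With ERKi against DMSO, 35.2% of all genes were called lower and 34.5% higher. The shares were 33.4% lower and 30.4% higher in Comb against DMSO, and 24.3% lower and 26.5% higher in Comb against ERKi. In the rest of MICOS and its outer membrane partners, 8 of 10 fell and 1 rose with ERKi (median -0.63). APOO, a MICOS subunit that binds lipid, was at -2.11 and DNAJC11 at -0.93, while APOOL, the paralogue of APOO, rose by 0.25. The level of APOO was low, with means of 5.21 CPM in DMSO and 1.20 CPM in ERKi libraries. Comb against ERKi had 5 of them higher and 3 lower, with MICOS13 at 0.58 and DNAJC11 at 0.45 higher, and APOOL at -0.41 and MTX2 at -0.25 lower. Comb against DMSO had 8 lower and 0 higher, among them SAMM50, which inserts outer membrane barrel proteins, at -0.46 and DNAJC11 at -0.48.

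Among 10 genes listed for mitochondrial proteases or OPA1 control, not all of which act on OPA1, 7 fell and 2 rose with ERKi (median -0.43). LONP1, the matrix protease, was at -1.49 (SE 0.067), and PARL, a rhomboid protease, at 0.44 (SE 0.05), with SIRT4 at 1.57 (SE 0.27). The level of SIRT4 was low, with means of 0.684 CPM in DMSO, 2.04 CPM in ERKi and 1.12 CPM in Comb libraries. In Comb against ERKi, 5 were higher, among them LONP1 (0.74) and SPG7 (0.54), and SIRT4 was the gene called lower (-0.86). Of all genes, 35.2% were called lower and 34.5% higher with ERKi, and 24.3% lower and 26.5% higher in Comb against ERKi.

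Of 12 genes that act on mitofusins or at the outer membrane, 6 were higher and 4 lower with ERKi (median 0.18). Across all genes 34.5% were called higher and 35.2% lower in this comparison. PINK1, a kinase that marks damaged mitochondria for removal, was at 0.84 (SE 0.116). MSTO1, which is reported to help fusion, was at -1.13 (SE 0.104) and RHOT2, a motor adaptor, at -0.46 (SE 0.066). In Comb against ERKi 3 were higher and 4 lower, with MSTO1 at 1.06, RHOT2 at 0.88, PINK1 at -0.60 and RHOT1 at -0.27. The shares of all genes there were 26.5% higher and 24.3% lower.

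Of the 6 ATP synthase subunits that join or regulate its dimers, which bend the cristae rim, 3 fell with ERKi and 0 rose. With ERKi against DMSO 35.2% of all genes were called lower and 34.5% higher. In Comb against ERKi the shares were 24.3% lower and 26.5% higher. ATP5MK was at -0.71 and ATP5MF at -0.41, and Comb against ERKi had 2 higher, ATP5IF1 (0.31) and ATP5MG (0.24). Cardiolipin genes, 8 of 9 tested, had 5 lower and 1 higher with ERKi. PRELID1, which carries the lipid precursor between membranes, was at -1.0 and LCLAT1 at -0.92, with PGS1, the first committed enzyme, at 0.27. In Comb against ERKi 4 were higher and 0 lower, with PRELID1 at 0.84 and TAFAZZIN, which remodels cardiolipin, at 0.43.

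**Figure D5:**
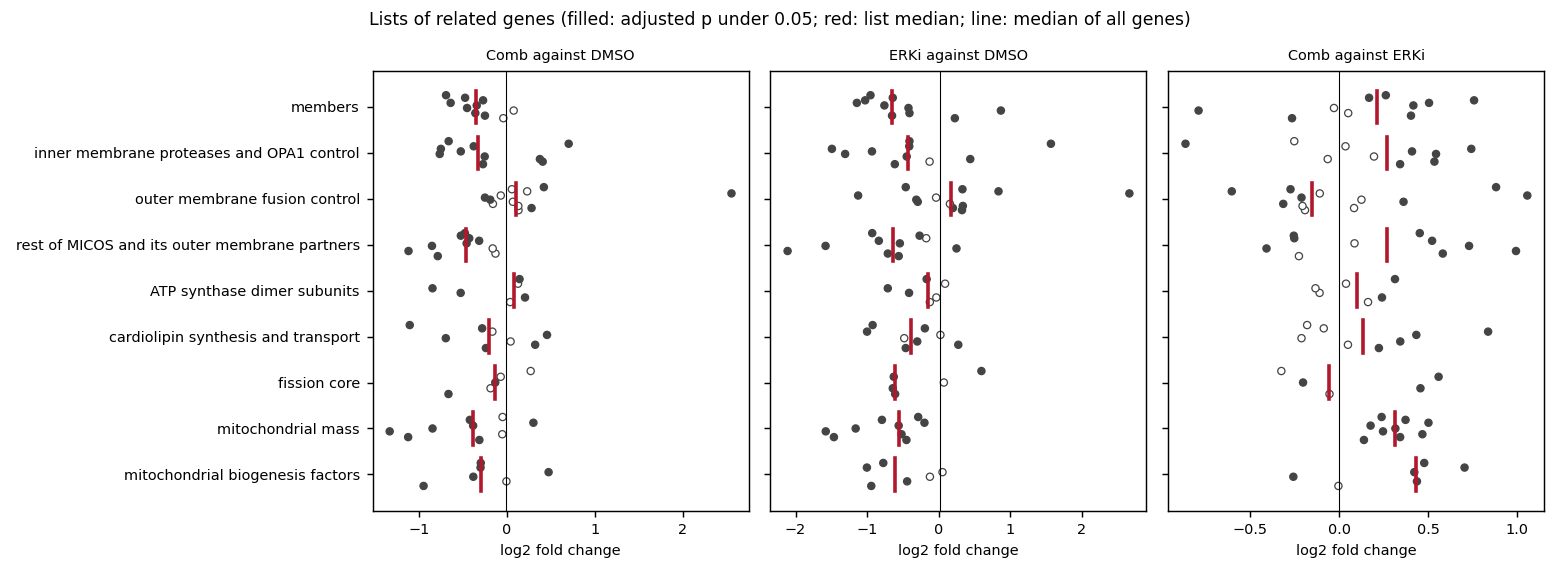
Log2 fold change (x axes) of the genes of each list (rows, one point per gene) in Comb against DMSO, ERKi against DMSO and Comb against ERKi, filled where adjusted p was under 0.05, with the list median in red and the median of all genes as a black line. The list medians with ERKi against DMSO lie below that line, apart from the outer membrane fusion control genes at 0.18.

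With ERKi and in Comb against ERKi, general markers of mitochondrial mass moved with MFN2, PHB2, STOML2, PLD6, IMMT and CHCHD3. They moved opposite to MFN1 and OMA1, and OPA1 and YME1L1 were not called in Comb against ERKi. All 9 markers fell with ERKi, from -0.20 to -1.58 (median -0.56), with the chaperonin gene HSPD1 at -1.58 and the channel gene VDAC1 at -1.46. All 9 were higher in Comb than in ERKi (median 0.32, range 0.14 to 0.50), with CS at 0.47 and VDAC1 at 0.34. Against DMSO, Comb had 6 of these markers lower and 1 higher, COX4I1 at 0.30. Of all genes, 35.2% were called lower and 34.5% higher with ERKi, and 24.3% lower and 26.5% higher in Comb against ERKi. In Comb against DMSO the shares were 33.4% lower and 30.4% higher. Of 7 factors of mitochondrial biogenesis, 6 were tested, and 4 fell and 0 rose with ERKi, PPRC1 at -1.0 and TFAM at -0.94. Comb against ERKi had 4 of these higher and 1 lower, with PPRC1 at 0.70, NRF1 at 0.44 and GABPA at -0.26. The 5 fission core genes had 3 lower and 1 higher with ERKi, where DNM1L, the fission GTPase, was at -0.61, MIEF1 at -0.63 and MIEF2 at 0.60, and 2 higher and 1 lower in Comb against ERKi, with MIEF1 at 0.56, FIS1 at 0.46 and MFF at -0.20. The part of mitochondrial mass in the members' changes was not tested.

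Markers of other states also moved with the treatments. The 5 monocyte markers summed to 4078 to 4310 CPM in Comb, 2821 to 2994 in ERKi, 287 to 296 in ABT199 and 315 to 339 in DMSO libraries. The 4 stress genes summed to 23.4 to 24.9 CPM in Comb, 18.5 to 20.7 in ERKi, 42.3 to 46.9 in ABT199 and 41.6 to 50.0 in DMSO libraries. Fibroblast markers, with counts for all 6, summed to 2.09 to 2.48 CPM in Comb, 10.4 to 25.1 in ERKi, 13.2 to 24.4 in ABT199 and 6.23 to 35.01 in DMSO libraries. The 3 endothelial markers summed to 88.2 to 97.8 CPM in Comb, 73.3 to 76.8 in ERKi, 12.8 to 15.01 in ABT199 and 11.4 to 12.2 in DMSO libraries, with CDH5 at 0. The 3 B cell markers summed to at most 1.52 CPM in any library. Their part in the results was not tested.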

How the data were processed

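Poly(A) RNA of OCI-AML3 cells was sequenced as paired ends, per the labels' protocols. The authors deposited whole-number read counts per gene symbol for the 12 libraries. HISAT2, HTSeq, DESeq2 and build hg38 are named, with no roles, per the submitters' processing notes. For tool versions, annotation release and strand setting, the sources used here give nothing. There were 0 rows without a gene name. The analysis started from these counts, in R 4.3.3 with edgeR 4.0.16: filterByExpr (minimum count 10, total 15) kept 15173 genes, libraries were scaled by TMM, and a model with 1 coefficient per group (8 residual degrees of freedom) was tested by quasi-likelihood F tests, adjusted by Benjamini-Hochberg over all genes tested. The SE of a log2 fold change is its size over the root of its F value. The scaling takes most genes as unchanged, whereas 10578 of 15173 genes were called with ERKi against DMSO and 10047 in Comb against ABT199. The code was checked on simulated counts in which few genes were changed. That check cannot show a bias of the scaling where most genes move. Alternatives were RLE and upper-quartile factors, DESeq2 1.42.0, limma-voom (limma 3.58.1), 2 other filters, fits with the replicate block, fits to just the groups compared, and leaving out single libraries. The members and lists were chosen with earlier results of these data known. All members are named in each comparison, and up to 2 called genes per list and direction by adjusted p; some genes that this rule names are not reported here. All pairs of replicates differed by more than sampling noise. Figures were drawn with matplotlib 3.10.9.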

Additional observations from a re-analysis of the deposited data

Results flagged for a closer look

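For 7 of the 10 genes, the effect of venetoclax with ERKi present differed from its effect without ERKi. The call was by the interaction term of the edgeR fit (adjusted p under 0.05). Of all genes, 21.3% were called above 0 and 18% below 0 for this term. The call of CHCHD3 held in 8 of the 12 fits with a single library left out. The differences on the log2 scale, with minus without ERKi, were 0.85 for PLD6, 0.52 for STOML2, 0.50 for PHB2, 0.42 for MFN2, 0.22 for CHCHD3, -0.44 for MFN1 and -0.95 for OMA1.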

How the results depend on the processing

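Counts of called members moved in 3 comparisons: members lower in Comb against ABT199 were 6 with upper-quartile factors and 7 to 9 with single libraries left out, against 9, members higher with ERKi against DMSO were 1 to 2 with single libraries left out, and members above 0 in the interaction were 4 to 5. Upper-quartile scaling moved the median of all genes by 0.14 (ERKi against DMSO), 0.11 (Comb against DMSO) and 0.12 (Comb against ABT199) on the log2 scale, and all changes are relative to such a shift; with it MFN2 and PLD6 in Comb against DMSO were at -0.14 and -0.16. Values that changed sign lay near 0 and were not called: MFN1 in Comb against DMSO (0.068) and OMA1 in Comb against ABT199 (0.039) with upper-quartile factors, and YME1L1 in Comb against ERKi (0.0019) and OPA1 in the interaction (0.0055) with no filter. With single libraries left out, ranges that crossed 0 were -0.046 to 0.019 for MFN2, -0.15 to 0.050 for PHB2 and -0.078 to 0.096 for STOML2 (ABT199 against DMSO), -0.087 to 0.038 for MFN1 (Comb against DMSO), -0.16 to 0.0053 for OMA1 (Comb against ABT199) and -0.086 to 0.045 for OPA1 (interaction). They were -0.058 to 0.083 for the log2 ratio of MFN1 to MFN2 (Comb against ABT199) and -0.0043 to 0.15 for OMA1 to YME1L1 (ABT199 against DMSO). The cause was not tested. Genes called higher and lower with ABT199 against DMSO, 3 and 58, were 74 and 168 with no filter, 11 and 74 with DESeq2, 1 and 32 with only the libraries compared, 1 and 64 with upper-quartile factors, and 1 to 17 and 30 to 81 with single libraries left out. Replicate numbers did not pair the libraries: same-numbered libraries of different groups correlated at -0.13 to 0.11 in their deviations from group means, and 1 of 12 libraries correlated best with its own number. With the replicate block, 1 and 47 genes were called with ABT199 against DMSO and 5194 and 5300 with ERKi against DMSO, and the counts of called members were as without it. At this depth OMA1, with 156 to 376 reads per library, had the widest errors of the 10.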
